A study of Mus musculus with 10 samples.

Results

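The Ms4a genes encode small membrane proteins that cross the plasma membrane several times, and in the mouse they lie side by side on chromosome 19. The family was read here across myeloid cells that carried an activated cytokine receptor or the same receptor without 1 tyrosine. Members were every probe whose gene symbol in the platform annotation began with Ms4a, with probes of the same gene averaged. This gave 16 genes from 18 probes, out of 20243 features on the arrays, which are gene means or single probes without a gene symbol. All 16 were kept, because no filter on low values was applied. The reference gene table lists 21 Ms4a genes in the cluster, and the other 5 (Ms4a15, Ms4a12, Ms4a5, Ms4a14 and Ms4a4a) were not measured.

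FDB1 is a mouse myeloid progenitor line that grows in IL-3. The samples came from FDB1 cells expressing FI-Delta Y577F (Y577F below) and from FDB1 cells expressing FI-Delta. FI-Delta is an activated mutant of the signalling chain shared by the receptors for GM-CSF, IL-3 and IL-5, and Y577F is that mutant with a tyrosine of its intracellular part changed to phenylalanine. Cells of both lines were harvested after washing and 72 h without growth factor, and at 0 h from growth in IL-3, which made 4 RNA groups of 2 cultures each according to the design text. All 4 groups therefore carry an activated receptor, and the data hold no FDB1 cells without one and no cells kept in IL-3 for 72 h, so effects of factor withdrawal, of the wash and of the days in culture cannot be told apart. The labels do not say whether a line is 1 clone, nor how the receptor was introduced.

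RNA of the groups was compared in pairs on 10 two-colour spotted arrays. The 72 h and 0 h samples were set against each other on 2 arrays in Y577F cells and on 3 arrays in FI-Delta cells. Y577F cells were set against FI-Delta cells directly as well, on 2 arrays after 72 h and on 3 arrays before the wash, at 0 h. Every value is a log2 ratio turned to read 72 h over 0 h or Y577F over FI-Delta, so a positive value means more RNA at 72 h or in Y577F cells. The direction is likely Cy5 over Cy3, since the labels state neither it nor the log base, and if it were the other way every sign below would turn. A ratio carries no level, so no member's abundance can be set against another's and the presence of a cell type's markers cannot be checked. Array medians lay between -0.0162 and 0.00904, spot intensities were not analysed here, and precision is limited by how few arrays there are.

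The best known members are Ms4a1, which encodes CD20 of B cells, and Ms4a2, which encodes the beta chain of the high-affinity IgE receptor of mast cells and basophils. Other members are used as marks of myeloid stages. In the mouse, Ms4a3 is switched on in granulocyte-monocyte progenitors and in early granulocytes and is off in mature macrophages, while Ms4a6b, Ms4a6c, Ms4a6d and Ms4a7 are found in monocytes and macrophages. Myeloid promoters are known to be bound by the ETS family factor PU.1 and by C/EBP factors, which also guide the choice between the granulocyte and the macrophage fate.

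The promoters of the members that moved furthest are shown first, beside that of Ms4a4b, the near copy of Ms4a4c that did not pass the test. Promoter sequences of 300 bases (250 before and 50 after the annotated start) from RefSeq, build GRCm38.p6, matched 13 of the 16 members, with 2 starts for Ms4a7, and Ms4a20, Ms4a6d and Ms4a1 had no entry. Each sequence reads 5′ to 3′ on the gene's strand. The Ms4a6b window is chr19:11518309-11518608 on the plus strand and the Ms4a6c window is chr19:11469118-11469417 on the plus strand. Capitals mark the longest run of bases that these 2 promoters share.
Ms4a6b: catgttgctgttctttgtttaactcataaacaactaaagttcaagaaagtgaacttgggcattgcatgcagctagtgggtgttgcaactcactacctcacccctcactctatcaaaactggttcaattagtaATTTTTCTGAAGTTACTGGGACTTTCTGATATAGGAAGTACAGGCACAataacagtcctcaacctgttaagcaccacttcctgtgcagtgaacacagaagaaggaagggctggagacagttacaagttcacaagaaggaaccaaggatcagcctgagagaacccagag
Ms4a6c: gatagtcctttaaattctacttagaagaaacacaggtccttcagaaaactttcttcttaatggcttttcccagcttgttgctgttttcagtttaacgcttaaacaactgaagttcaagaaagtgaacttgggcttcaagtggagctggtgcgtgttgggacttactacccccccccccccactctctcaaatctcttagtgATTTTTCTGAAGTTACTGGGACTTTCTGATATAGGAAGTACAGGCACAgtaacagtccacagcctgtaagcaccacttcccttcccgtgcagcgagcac
The shared run has 48 bases, and 193 of the 216 bases paired by a local alignment were identical, which is 89.4%. The next pair is Ms4a4c (chr19:11407411-11407710, plus strand) and Ms4a4b (chr19:11443308-11443607, plus strand), again with the longest shared run in capitals.
Ms4a4c: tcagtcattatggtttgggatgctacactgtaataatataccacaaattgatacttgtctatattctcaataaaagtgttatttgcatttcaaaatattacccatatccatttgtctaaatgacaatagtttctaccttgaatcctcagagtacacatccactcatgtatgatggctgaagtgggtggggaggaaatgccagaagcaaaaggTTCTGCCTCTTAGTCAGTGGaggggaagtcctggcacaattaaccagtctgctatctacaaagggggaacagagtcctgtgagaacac
Ms4a4b: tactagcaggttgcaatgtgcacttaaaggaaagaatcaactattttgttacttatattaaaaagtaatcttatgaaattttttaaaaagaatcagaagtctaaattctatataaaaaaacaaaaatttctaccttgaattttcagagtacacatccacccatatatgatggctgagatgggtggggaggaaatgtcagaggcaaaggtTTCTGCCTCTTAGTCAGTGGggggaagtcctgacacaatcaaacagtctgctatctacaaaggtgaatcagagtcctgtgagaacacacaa
This run has 20 bases, and 159 of the 177 paired bases were identical, which is 89.8%. These were the closest pairs among the 14 member promoters, and every other pair shared a run of at most 13 bases. The Ms4a3 promoter (chr19:11640802-11641101, minus strand) is shown because Ms4a3 moved against the others, with capitals on the matches to GGAAGT, a core of PU.1 and other ETS factors, on both strands, and to TTGCNNAA, the letters searched for C/EBP.
Ms4a3: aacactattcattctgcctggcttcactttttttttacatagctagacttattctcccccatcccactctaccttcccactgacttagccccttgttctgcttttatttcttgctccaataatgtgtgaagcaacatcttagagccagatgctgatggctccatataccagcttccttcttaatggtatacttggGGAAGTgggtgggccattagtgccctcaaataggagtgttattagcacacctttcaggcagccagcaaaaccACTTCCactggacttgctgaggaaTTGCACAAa

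Both motifs were searched on both strands, and the 2 sets of letters do not overlap in this promoter. GGAAGT was found in 8 of the 14 member promoters (Ms4a19, the first start of Ms4a7, Ms4a4c, Ms4a4b, Ms4a6c, Ms4a6b, Ms4a4d and Ms4a3), against 23.8% of the 32851 promoters in the table. The promoters of Ms4a6b and Ms4a6c carry it inside their shared run. TTGCNNAA was found in 2 (Ms4a4d and Ms4a3), against 10.8% of all promoters. Of the other letters searched, the AP-1 motif TGANTCA was in 3 against 7.81% of all. The GATA motif AGATAA was in 2 against 11.2%, and the interferon response motif in 1 against 3.44%. The STAT5 motif TTCNNNGAA (8.3% of all) and the composite motif of PU.1 with IRF (2.72% of all) were in 0. These letters occur both in promoters of genes that passed the test and in those of genes that did not, and a match is only a description of the window.

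In Y577F cells, 5 members were higher and 1 was lower at 72 h than at 0 h. Ms4a6c, Ms4a6d and Ms4a6b rose more than 4-fold, Ms4a4c and Ms4a7 about 2-fold, and Ms4a3 fell. Of all features 18.0% were called in this comparison, 9.28% higher and 8.75% lower, at an adjusted p under 0.05 in limma. The median change of the 16 members was 0.07 on the log2 scale, beside 0.01 over all features, so the changes were those of the 6 named genes and not of most members. In bulk RNA such a change cannot be told apart from a change in the number of cells that express the gene.

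Ms4a6b, a gene of mouse macrophages that is also described on mouse T cells, read 1.60 and 2.52 on the 2 Y577F time arrays. In FI-Delta cells the 3 time arrays read 0.31, 0.29 and 0.33. The 2 arrays of Y577F cells differed from each other by more than those of any other called member on this side, yet both lay far above every FI-Delta time array. The fitted rise was 2.10 ± 0.12 (SE) in Y577F cells, which is 4.29-fold (limma, adjusted p = 5.85e-07). In FI-Delta cells the change was 0.19 ± 0.12 with adjusted p = 0.446, although all 3 arrays lay above 0.

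Ms4a6c, its neighbour with the shared promoter run, read 2.39 and 2.34 on the Y577F time arrays. On the FI-Delta time arrays it read 0.36, 0.13 and 0.66, all above 0 but below the Y577F values. The fit gave 2.30 ± 0.10 in Y577F cells, 4.93-fold (adjusted p = 1.32e-07), and 0.45 ± 0.10 in FI-Delta cells, 1.36-fold (adjusted p = 0.0217). The rise in FI-Delta cells was the less firm of the pair: it lost its call in 5 of 19 alternative fits (adjusted p 0.0127 to 0.139 over all of them), among them those without 0 h array 1, FI-Delta time array 3 or Y577F time array 1.

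Ms4a6d, which in mouse macrophages has been described as a partner of the complement receptor VSIG4, is the mean of 2 probes. It read 2.13 and 2.08 on the Y577F time arrays, against 0.57, 0.55 and 0.64 on the FI-Delta time arrays, with little spread on either side. The fitted rises were 2.11 ± 0.09 in Y577F cells, 4.32-fold (adjusted p = 1.11e-07), and 0.62 ± 0.09 in FI-Delta cells, 1.54-fold (adjusted p = 0.00139). Its probes rose alike in Y577F cells, by 2.09 ± 0.11 and 2.14 ± 0.10, but not in FI-Delta cells. There probe 1 changed by 0.18 ± 0.12 (adjusted p = 0.449) and probe 2 rose by 1.06 ± 0.10 (adjusted p = 5.11e-05). Probe 1 read -0.05, 0.43 and 0.30 on the FI-Delta time arrays and probe 2 read 1.19, 0.68 and 0.98, so the probes did not overlap there and the gene's rise in FI-Delta cells rests on probe 2.

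**Figure D1:**
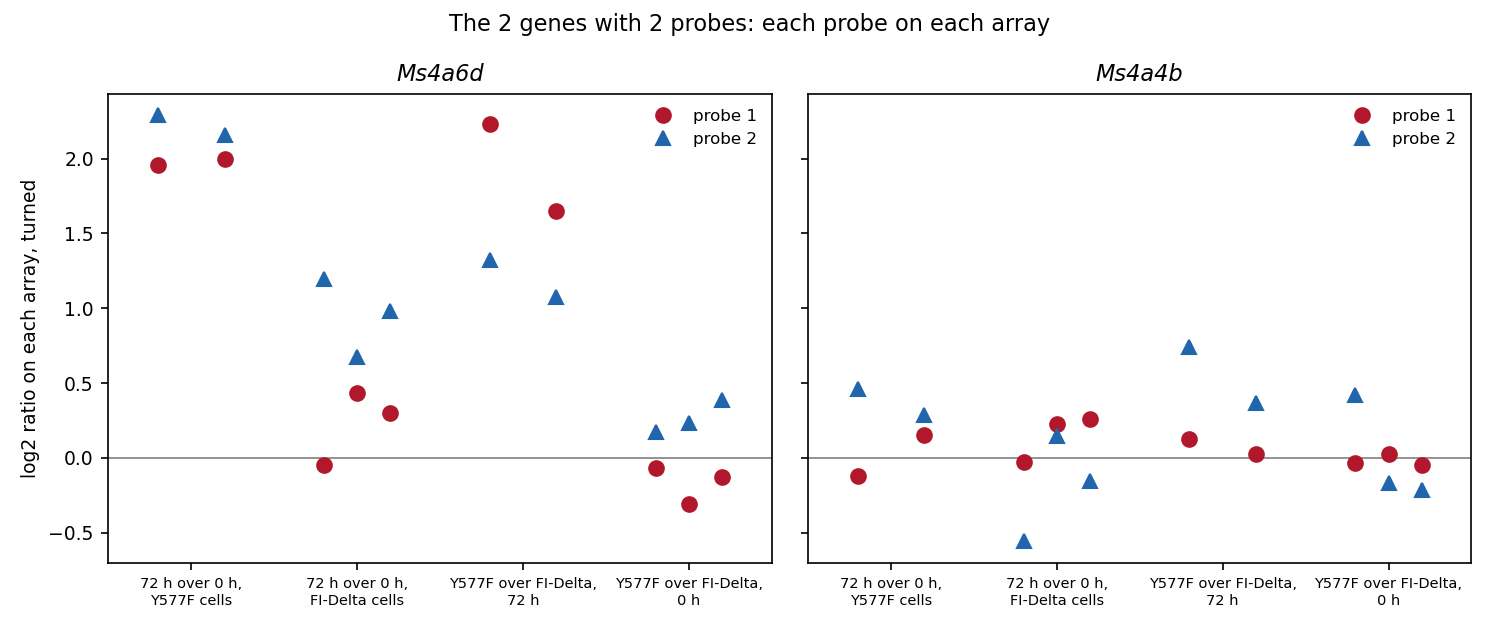
Log2 ratio on each array (vertical axis, turned to 72 h over 0 h or Y577F over FI-Delta) of each probe of Ms4a6d (left) and Ms4a4b (right), which have 2 probes each, for the 4 direct comparisons along the horizontal axis. The Ms4a6d probes lie together near 2 on the Y577F time arrays and apart on the FI-Delta time, 72 h and 0 h arrays. Probe 2 of Ms4a4b lies above probe 1 on both 72 h arrays.

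Ms4a4c read 0.86 and 1.16 on the Y577F time arrays. On the FI-Delta time arrays it lay on both sides of 0, at 0.02, 0.30 and -0.04. The fit gave a rise of 1.13 ± 0.11 in Y577F cells, 2.19-fold (adjusted p = 2.72e-05), and -0.05 ± 0.11 in FI-Delta cells (adjusted p = 0.878). Ms4a7, a mark of macrophages of brain borders and other tissues in the mouse, read 1.24 and 1.04 on the Y577F time arrays and 0.18, 0.66 and 0.13 on the FI-Delta time arrays. All 5 arrays were above 0, and those of Y577F cells were the higher. The fitted rises were 1.04 ± 0.10 in Y577F cells, 2.05-fold (adjusted p = 1.86e-05), and 0.45 ± 0.10 in FI-Delta cells, 1.37-fold (adjusted p = 0.0155). In FI-Delta cells that call was lost in 5 of 19 alternatives (adjusted p 0.00134 to 0.283), including the fits without 0 h array 1 or 72 h array 2.

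Ms4a3, the granulocyte-monocyte progenitor gene whose human protein HTm4 binds the cell cycle phosphatase KAP, read -0.48 and -0.36 on the Y577F time arrays. In FI-Delta cells it read 1.08, 0.53 and 0.64, so the lines moved in opposite directions on every array. The fit gave a fall in Y577F cells, with a change of -0.44 ± 0.10 (1.36-fold lower, adjusted p = 0.00766), and a rise of 0.71 ± 0.10 in FI-Delta cells (1.64-fold, adjusted p = 0.00103). The rise in FI-Delta cells was called in all 19 alternatives. The fall in Y577F cells was called in 15 of 19 (adjusted p 0.00547 to 0.0713), and it was lost without Y577F time array 1, where the change was -0.46.

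**Figure D2:**
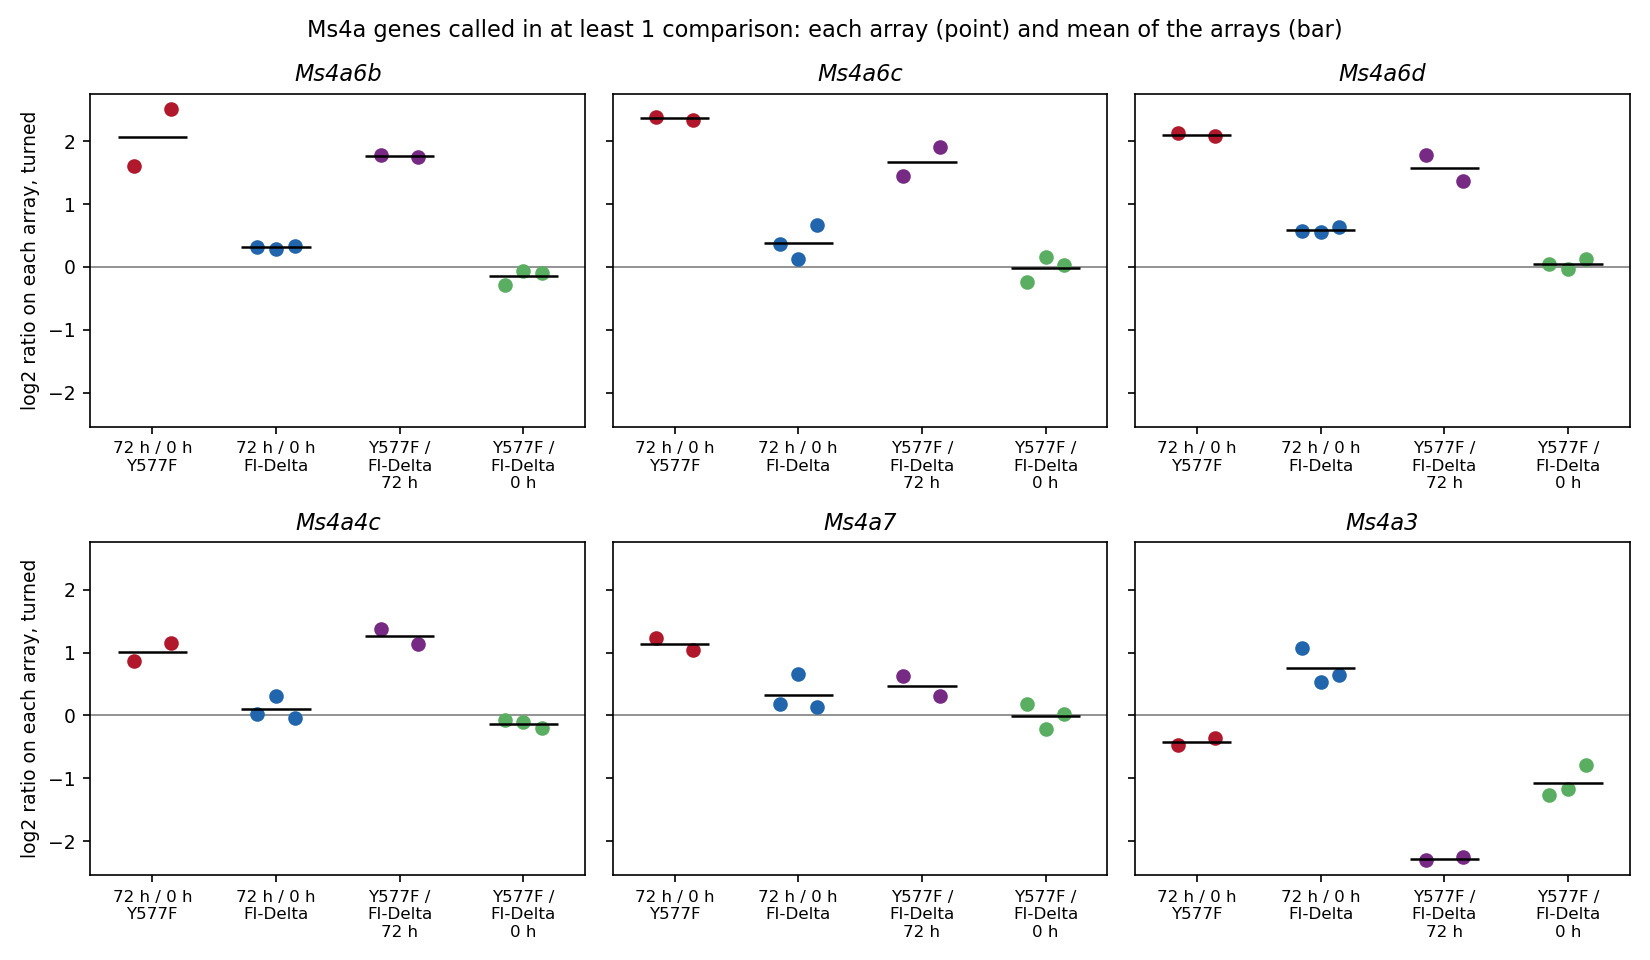
Log2 ratio on each array (points, vertical axis) of the 6 Ms4a genes called in at least 1 comparison, with the mean of the arrays as a bar, for 72 h over 0 h in Y577F and FI-Delta cells and for Y577F over FI-Delta at 72 h and 0 h along the horizontal axis. Ms4a6b, Ms4a6c, Ms4a6d, Ms4a4c and Ms4a7 lie above 0 on both Y577F time arrays and both 72 h arrays, while Ms4a3 lies below 0 there and above 0 on the 3 FI-Delta time arrays.

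Over the change with time in FI-Delta cells, 4 members rose (Ms4a3, Ms4a6d, Ms4a7 and Ms4a6c), none fell and 12 did not pass, beside 8.16% of all features called, 5.19% higher and 2.97% lower. The median of the members was 0.05, beside -0.01 over all features. The count of 4 fell to 2 without 0 h array 1, and then only Ms4a3 and Ms4a6d were called.

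At 72 h the lines were far apart. On the arrays that set Y577F against FI-Delta cells directly, Ms4a6b read 1.78 and 1.75, Ms4a6c 1.45 and 1.90, and Ms4a6d 1.78 and 1.36, which puts all 3 at 1.36 or more on both arrays. The Ms4a6d values are means of 2 probes, which read 2.23 and 1.65 (probe 1) and 1.32 and 1.07 (probe 2). In fits by probe these had 1.83 ± 0.11 and 1.29 ± 0.10, and both passed. Ms4a4c read 1.38 and 1.14 and Ms4a7 read 0.62 and 0.31, also on the side of Y577F cells. Ms4a3 read -2.30 and -2.26, which puts it far lower in Y577F cells on both. The fit called 5 members higher in Y577F cells and 1 lower, beside 12.9% of all features called, 6.44% higher and 6.45% lower. The median of the members was 0.11 and that of all features 0.01.

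The fitted differences at 72 h were 1.74 ± 0.10 for Ms4a6c (3.35-fold higher in Y577F cells, adjusted p = 6.77e-07), 1.73 ± 0.12 for Ms4a6b (3.31-fold, adjusted p = 2.37e-06) and 1.56 ± 0.09 for Ms4a6d (2.95-fold, adjusted p = 6.15e-07). All 3 kept their calls in every alternative. Ms4a4c followed with 1.14 ± 0.11 (2.20-fold, adjusted p = 3.42e-05) and Ms4a7 with 0.57 ± 0.10 (1.48-fold, adjusted p = 0.00203). The call of Ms4a7 was lost in 2 of 19 alternatives (adjusted p 0.000105 to 0.112). Ms4a3 had a difference of -2.26 ± 0.10, 4.79-fold lower in Y577F cells (adjusted p = 7.37e-08), and ranked 27th by size among the 20243 features.

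At 0 h, with both lines growing in IL-3, Ms4a3 was the only member that passed the test. It read -1.26, -1.17 and -0.79 on the 3 arrays, lower in Y577F cells on each, and the array with the dyes the other way round had the same sign after turning. The fitted difference was -1.11 ± 0.09, 2.16-fold lower in Y577F cells (adjusted p = 7.64e-05), the 19th largest of all features in a comparison where 1.42% of features were called, 0.934% higher and 0.484% lower. The call was kept in all 19 alternatives. The other 15 members lay between -0.18 and 0.11, and Ms4a6b, Ms4a6c, Ms4a6d, Ms4a4c and Ms4a7 had differences of -0.18, -0.11, 0.07, -0.04 and -0.02. Their arrays overlapped 0 for Ms4a6c, Ms4a6d and Ms4a7, while Ms4a6b read -0.28, -0.07 and -0.10 and Ms4a4c read -0.07, -0.11 and -0.20, below 0 on each array without passing the test. For Ms4a6d this is the mean of 2 probes on opposite sides of 0. Probe 1 read -0.07, -0.31 and -0.13 and probe 2 read 0.17, 0.23 and 0.39, and neither passed in its own fit.

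**Figure D3:**
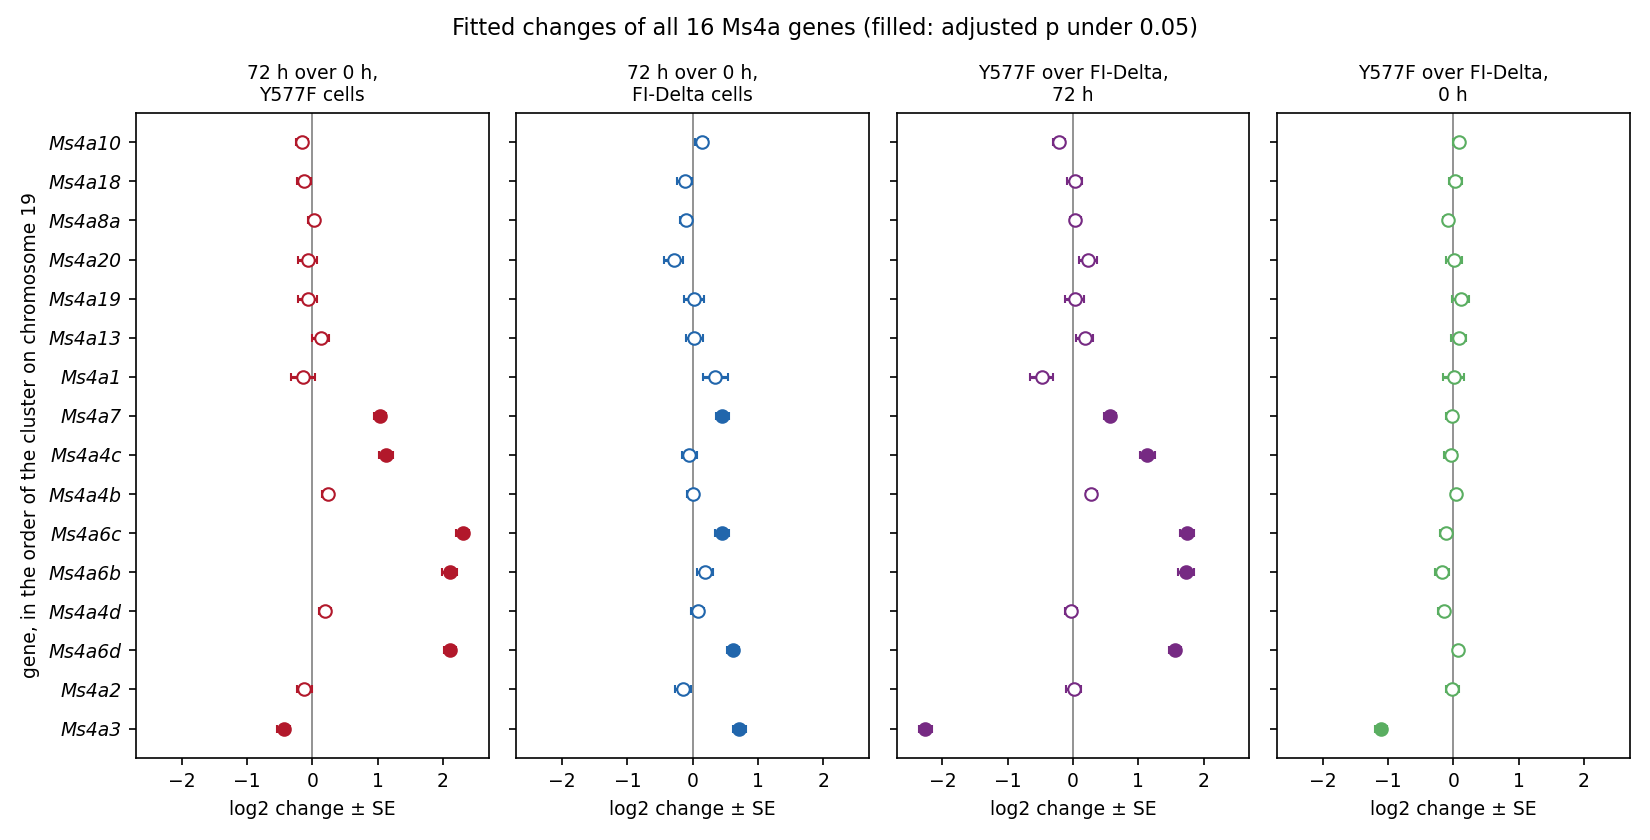
Fitted log2 change ± standard error (horizontal axis) of all 16 measured Ms4a genes, listed from top to bottom in their order along chromosome 19, in the 4 direct comparisons, with filled points where the adjusted p was under 0.05. The filled points lie between Ms4a7 and Ms4a6d and at Ms4a3, and only Ms4a3 is filled at 0 h.

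The 4 groups can be put on one relative scale per gene, with the FI-Delta 0 h group at 0. Ms4a3 was highest in FI-Delta cells at 72 h (0.71 ± 0.10), then came FI-Delta at 0 h, Y577F at 0 h (-1.11 ± 0.09) and Y577F at 72 h (-1.55 ± 0.11). Each step in that order was one of the tested comparisons and passed, the last one with the limit given above. Ms4a6b stood at 1.92 ± 0.14 in Y577F cells at 72 h, and its other groups, at 0.19 ± 0.12 in FI-Delta cells at 72 h and -0.18 ± 0.11 in Y577F cells at 0 h, were not told apart from FI-Delta cells at 0 h by the test. Ms4a4c had the same shape, with 1.09 ± 0.13, -0.05 ± 0.11 and -0.04 ± 0.10. Ms4a6c (2.19 ± 0.12, 0.45 ± 0.10 and -0.11 ± 0.09), Ms4a6d (2.18 ± 0.10, 0.62 ± 0.09 and 0.07 ± 0.08) and Ms4a7 (1.02 ± 0.11, 0.45 ± 0.10 and -0.02 ± 0.09) had an intermediate place for FI-Delta cells at 72 h.

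**Figure D4:**
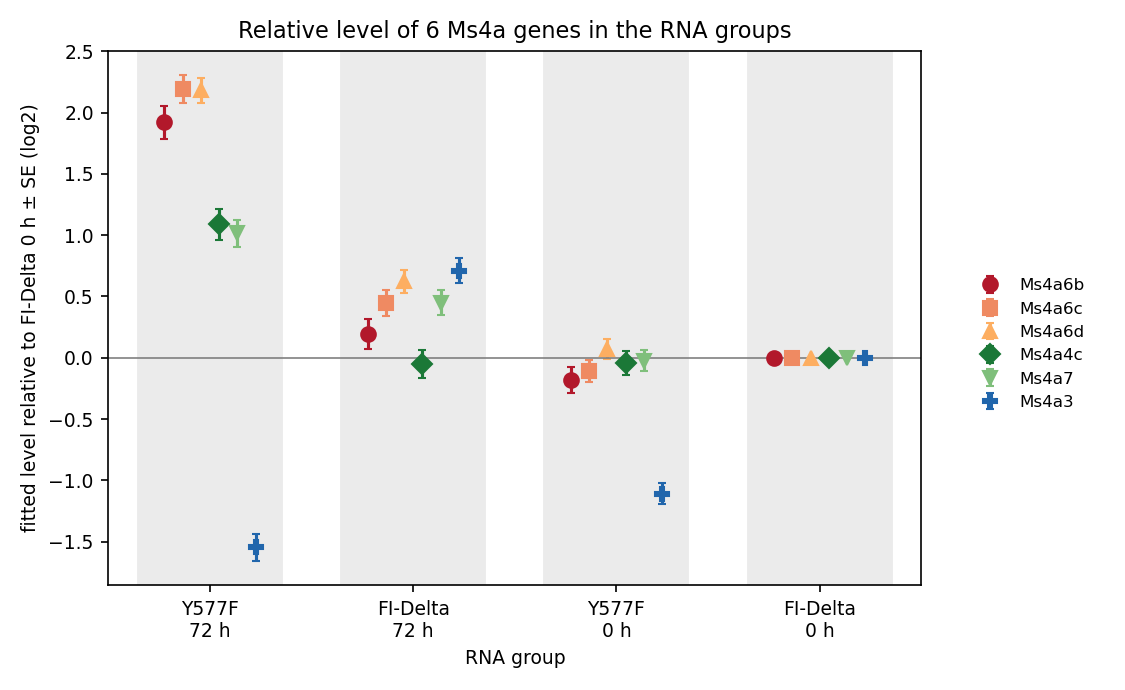
Fitted level of 6 Ms4a genes in each RNA group relative to the FI-Delta 0 h group (vertical axis, log2 ± standard error; that group is 0 by definition), with Y577F left of FI-Delta at 72 h and at 0 h. Ms4a3 is lowest at -1.55 in Y577F cells at 72 h, where Ms4a6c, Ms4a6d and Ms4a6b lie at 2.19, 2.18 and 1.92.

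The change with time was also compared between the lines within the same fit, as the change in Y577F cells minus that in FI-Delta cells. It passed for the same 6 members, 5 higher and 1 lower, beside 9.24% of all features called, 4.33% higher and 4.91% lower. The differences were 1.91 ± 0.14 for Ms4a6b, 1.85 ± 0.12 for Ms4a6c, 1.49 ± 0.10 for Ms4a6d, 1.18 ± 0.13 for Ms4a4c and 0.59 ± 0.11 for Ms4a7. Ms4a3 had -1.15 ± 0.11. The differences of Ms4a3, Ms4a6b, Ms4a6c and Ms4a6d kept their calls in every alternative. That of Ms4a7 lost its call with the replicate block, in which each RNA extract has its own coefficient (adjusted p = 0.148) and from the direct arrays alone (adjusted p = 0.0722), and that of Ms4a4c from the direct arrays alone (adjusted p = 0.0577). The median of all 16 members was 0.12, beside 0.01 over all features. At an unadjusted p under 0.05, 9 members passed for this difference, 7 with time in Y577F cells, 4 with time in FI-Delta cells, 9 between the lines at 72 h and 1 at 0 h. The share of all features at that looser threshold was not counted, so nothing about the family can be read from these unadjusted counts. These comparisons draw on the same 4 RNA groups, so they are views of one set of values.

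The remaining 10 members did not pass in any of the 5 comparisons. Ms4a4b, a mouse T cell member of the family, came closest, at 0.28 ± 0.09 between the lines at 72 h (adjusted p = 0.0576) and 0.23 ± 0.09 with time in Y577F cells (adjusted p = 0.0921). Its 2 probes differed. Probe 2 read 0.74 and 0.37 on the 72 h arrays and was higher in Y577F cells in its own fit (0.55 ± 0.09, adjusted p = 0.00175), while probe 1 read 0.12 and 0.03 (0.01 ± 0.09, adjusted p = 0.971). In limma fits by probe, probe 2 also passed with time in Y577F cells (0.38 ± 0.09, adjusted p = 0.0133). It passed in the difference between the lines too (0.47 ± 0.11, adjusted p = 0.0167). Probe 1 passed in neither (adjusted p = 0.608 and 0.986). The sequences of the probes were not used here, and near copies such as Ms4a4b and Ms4a4c, or Ms4a6b and Ms4a6c, may be detected by each other's probes.

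Ms4a1 read 0.05 and -1.39 on the 72 h arrays, the widest disagreement between direct arrays of any member on that side, and its fitted difference of -0.48 ± 0.18 did not pass (adjusted p = 0.109). Means of the direct arrays, without the fit or its dye term, should add up to 0 around the square of 4 groups. They were off by -0.75 for Ms4a1, and only 0.785% of features were off by as much or more. Ms4a13 (0.56, 2.84% of features) and Ms4a19 (-0.49, 4.9%) were also far off, as was the called Ms4a4c (5.46%). For Ms4a3, Ms4a6d and Ms4a6b the same sum was -0.04, 0.01 and 0.17, and for Ms4a6c, Ms4a7 and Ms4a4c it was -0.29, -0.34 and 0.48, beside a median size of 0.15 over all features. Ms4a2 lay between -0.15 and 0.02 in the 5 comparisons. Ms4a10, Ms4a18, Ms4a8a, Ms4a20, Ms4a19, Ms4a13 and Ms4a4d ranged from -0.30 to 0.23 in all 5 comparisons together, and Ms4a8a, which in the mouse has been described in alternatively activated macrophages, had 0.02 ± 0.09 with time in Y577F cells. The dye term of the fit was called for no member (lowest adjusted p = 0.117, for Ms4a10).

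Along chromosome 19 the measured members follow each other as Ms4a10, Ms4a18, Ms4a8a, Ms4a20, Ms4a19, Ms4a13, Ms4a1, Ms4a7, Ms4a4c, Ms4a4b, Ms4a6c, Ms4a6b, Ms4a4d, Ms4a6d, Ms4a2 and Ms4a3. The 5 that rose in Y577F cells all lie in the stretch from Ms4a7 to Ms4a6d, together with Ms4a4b and Ms4a4d, which did not pass. Ms4a3 closes the cluster, separated from that stretch by Ms4a2. Of the 21 genes next to or inside the cluster that are no members, 13 were measured. With time in Y577F cells, 3 of these rose (Slc15a3, a transporter of histidine and small peptides, Stx3 and Cd6) and 1 fell (Prpf19). Of all features 18.0% were called there. Slc15a3 rose by 1.15 ± 0.15 in Y577F cells (adjusted p = 0.000286) and by 1.00 ± 0.16 in FI-Delta cells (adjusted p = 0.00233). The number that fell was 0 without any one of 6 arrays (the second Y577F time array, array 2 or 3 of the FI-Delta time series, 72 h array 1, or either of arrays 2 and 3 at 0 h) and 2 without 72 h array 2. With time in FI-Delta cells 2 neighbours rose and 2 fell (8.16% of all features called). In Y577F cells 2 were higher and 2 lower than in FI-Delta cells at 72 h (12.9%), and 1 lower at 0 h (1.42%). These counts all moved when single arrays were left out. Oosp1, the first measured gene after Ms4a3, rose in FI-Delta cells (0.59 ± 0.15, adjusted p = 0.0299). It was lower in Y577F cells at 72 h (-1.155 ± 0.14, adjusted p = 0.000215). Tmem109 was higher there (0.70 ± 0.09).

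The genes whose ratios ran most like those of a member over the 9 hybridisations were ranked by the cosine of the turned log ratios, which is 1 for the same pattern. Only named genes outside the family that were called in at least 1 direct comparison were ranked. The candidates were thus picked on the same ratios that make up the pattern. The share of features with cosines as high was not counted, so the values do not show how rare such likeness is. The hybridisations share RNA groups and the measure is a description. For Ms4a3 the nearest genes were Lta4h (leukotriene A4 hydrolase, 0.992) and Pglyrp1 (a peptidoglycan recognition protein of neutrophil granules, 0.992). Next came Prtn3 (proteinase 3, 0.992), Elane (neutrophil elastase, 0.991) and Camp (cathelicidin, 0.987). Elane, for example, had differences between Y577F and FI-Delta cells of -3.16 at 72 h and -1.60 at 0 h, on the same side as Ms4a3 at both times. For Ms4a6b they were Clec4a3 (a C-type lectin, 0.990), Naa20, Cbfa2t2-ps1, Csn2 and Dysf, the last at 0.976. Of these, Naa20 changed by only 0.25 with time in Y577F cells. Clec4a3 also headed the genes like Ms4a4c (0.987), followed by Icam1, Itgax, Pclo and Cx3cr1.

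For Ms4a6d the nearest pattern was that of Irf8 (0.997), a transcription factor of the monocyte lineage, followed by the kinase gene Fgr, Slc6a4, Tcf7l2 and Anxa4. For Ms4a6c it was Lipa (lysosomal acid lipase, 0.994), followed by Egr3, Gpnmb, Anxa4 and Slc6a4. For Ms4a7 it was Ier2 (0.985), followed by Asah1, P2ry6, Fhl1 and Fbp2. Among the members themselves the cosine lay between 0.835 (Ms4a7 with Ms4a4c) and 0.980 (Ms4a6c with Ms4a6d) for the 5 that rose. Ms4a3 had values from -0.67 (with Ms4a4c) to -0.37 (with Ms4a7) with these 5.

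Counts in the lists below stand beside the shares of all features called: 18.0% with time in Y577F cells and 8.16% with time in FI-Delta cells. Between the lines these shares were 12.9% at 72 h and 1.42% at 0 h. Most markers of monocytes and macrophages moved on the same side as Ms4a6b with time in Y577F cells and between the lines at 72 h. Ms4a6b was not called with time in FI-Delta cells (0.19 ± 0.12) or between the lines at 0 h (-0.18 ± 0.11). Of 18 measured, 16 rose with time in Y577F cells and none fell, with a median of 1.41, and Ctss (cathepsin S, 3.14 ± 0.09), Clec7a (the beta-glucan receptor Dectin-1, 3.00 ± 0.09), Mmp12 (macrophage elastase, 2.63 ± 0.11) and Ccr2 (2.53 ± 0.15) rose furthest. In FI-Delta cells 11 rose and none fell, with a median of 0.48, and without FI-Delta time array 3 the number was 6. Between the lines at 72 h, 14 were higher in Y577F cells and 1 was lower, with a median of 1.07, and the lower one was Itgam, the integrin chain CD11b (-1.15 ± 0.10). At 0 h, 4 were higher and 1 was lower, and both counts were 0 when 0 h array 1 was left out. The 1 lower marker also lost its call without 0 h array 2 or 3, without 72 h array 1 or without Y577F time array 2.

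Neutrophil granule genes moved on the same side as Ms4a3 in 3 comparisons. All 8 rose with time in FI-Delta cells (median 1.57), 8 of 8 were lower in Y577F cells at 72 h (median -2.64) and 7 of 8 at 0 h (median -1.03). With time in Y577F cells, where Ms4a3 fell, 1 rose (Mmp8, 0.93 ± 0.16), 1 fell (S100a9, -0.67 ± 0.17) and 6 did not pass, and the number that fell was 2 when 0 h array 2 was left out and 0 when Y577F time array 1 was. The part of these cell type markers in the changes of the members was not tested.

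Among 16 measured genes of granulocyte-monocyte progenitors, the stage that Ms4a3 marks, the direction was mixed. At 0 h, 4 were lower in Y577F cells and none was higher (1 without FI-Delta time array 2 or Y577F time array 1), and all 4 encode granule enzymes made at that stage: Elane (-1.60 ± 0.10), Prtn3 (-1.38 ± 0.12), Ctsg (cathepsin G, -0.90 ± 0.09) and Mpo (myeloperoxidase, -0.59 ± 0.08). With time in Y577F cells 6 fell, among them Ctsg (-1.57 ± 0.10) and the progenitor transcription factor gene Myb (-1.12 ± 0.09), and 7 rose, among them Csf3r (the G-CSF receptor, 1.29 ± 0.10) and Irf8 (1.19 ± 0.08). In FI-Delta cells 6 rose: Fcgr3 (0.90 ± 0.12), Hp (0.87 ± 0.13), Csf3r (0.75 ± 0.10), Elane (0.71 ± 0.11), Prtn3 (0.68 ± 0.14) and Irf8 (0.35 ± 0.08). There 2 fell, Cd34 (-1.12 ± 0.10) and Cebpa (-0.86 ± 0.12). Between the lines at 72 h, 5 were lower in Y577F cells and 5 were higher, and the number of higher ones was 3 without 72 h array 1. The lower ones were the same 4 granule enzyme genes and Myb, on the side of Ms4a3, and Irf8 (0.87 ± 0.08) and Cd34 (1.34 ± 0.09) were among the higher ones.

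KAP, the phosphatase that human HTm4 binds, is encoded by Cdkn3. It rose in FI-Delta cells with time (0.63 ± 0.11, adjusted p = 0.00341), as Ms4a3 did, and was lower in Y577F cells at 72 h (-1.06 ± 0.10, adjusted p = 3.43e-05). With time in Y577F cells its change was -0.33 ± 0.10 (adjusted p = 0.0463). Of 12 measured genes for KAP and the cyclin-dependent kinases, cyclins and their regulators, 8 fell with time in Y577F cells and none rose (median -0.44; 1 rose when FI-Delta time array 3 or 72 h array 1 was left out), and 8 were lower in Y577F cells at 72 h (median -0.52), among them Cks2 (-0.99 ± 0.09) and Ccna2 (cyclin A2, -0.97 ± 0.10). The inhibitor genes Cdkn1b (0.62 ± 0.15) and Cdkn1a (0.54 ± 0.15) were the 2 that were higher at 72 h, and this count was 0 or 1 when any of 5 single arrays was left out (array 1 of the Y577F time series, array 3 of the FI-Delta one, either 72 h array, or the second 0 h array). At 0 h none of the 12 passed.

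Ms4a2 forms the IgE receptor with the products of Fcer1a and Fcer1g, both of which were called. Fcer1a, the IgE-binding chain, was higher in Y577F cells at 72 h (2.32 ± 0.20) and at 0 h (1.14 ± 0.18, a call lost without 0 h array 1), and fell with time in FI-Delta cells (-1.44 ± 0.21). Fcer1g, the signalling chain shared with other Fc receptors, rose in Y577F cells (1.32 ± 0.09) and in FI-Delta cells (0.87 ± 0.10). Of 13 measured genes of the receptor and its first partners, 4 rose and 1 fell with time in Y577F cells, and the number that rose was 2 when the first array of any of the 4 direct comparisons was left out. With time in FI-Delta cells 3 rose and 2 fell, and 5 were higher and none lower in Y577F cells at 72 h. Without 72 h array 2 the number of higher ones was 3, and without Y577F time array 2 there was 1 lower one. With time in FI-Delta cells, 5 of 12 markers of mast cells and basophils fell and none rose, led by Cpa3 (mast cell carboxypeptidase, -2.57 ± 0.10). With time in Y577F cells 4 fell and 2 rose, Mitf (0.57 ± 0.09) and Kit (the stem cell factor receptor, 0.35 ± 0.08), and 1 rose without Y577F time array 1. Between the lines at 72 h, 5 of these markers were higher in Y577F cells, led by Fcer1a and Cpa3 (2.29 ± 0.10), and 1 was lower, Hdc (histidine decarboxylase, -1.25 ± 0.08). At 0 h, 2 were higher and 1 was lower, and without 0 h array 1 both counts were 0. There the number of higher ones was 1 when Y577F time array 2, the first 72 h array or either of the other 0 h arrays was left out, and the lower one was lost without 0 h array 2.

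Lymphoid markers were set beside Ms4a1 and Ms4a4b. Of 10 B cell markers, Cd22 (0.73 ± 0.12) and Vpreb1 (0.64 ± 0.09) were higher in Y577F cells at 72 h and none was lower. The same genes rose with time in Y577F cells, by 0.72 ± 0.12 and 0.42 ± 0.09, and no B cell marker was called with time in FI-Delta cells. Of 12 T cell markers none was higher at 72 h and 2 were lower, Cd3d and Cd6 (-0.43 ± 0.09), and 1 without 72 h array 1. With time in Y577F cells 1 T cell marker rose (Cd6) and 1 fell (Cd8b1, -0.40 ± 0.09), and with time in FI-Delta cells 1 rose (Cd3d). Both of these rises were lost in most fits without 1 array, and the fall was lost without Y577F time array 2. The counts of B and T cell markers with time in Y577F cells lay near the 18.0% of all features called there. Those of T cell markers at 72 h and with time in FI-Delta cells also lay near the shares of all features. Of 4 erythroid markers measured, Hba-a1, an alpha globin gene, was lower at 72 h in both lines, with changes of -1.82 in Y577F cells and -1.30 in FI-Delta cells. Epor, the erythropoietin receptor gene of the same list, rose in Y577F cells (0.33 ± 0.08, adjusted p = 0.0178), a call lost without either Y577F time array. Tetraspanins are another family of small proteins that cross the membrane several times. Of 23 measured, 5 rose and 2 fell with time in Y577F cells, and these counts were 1 and 0 without Y577F time array 1 and 4 and 1 without Y577F time array 2. In FI-Delta cells 2 rose and 1 fell (2 or 3 fell when array 1 of either line's time course or the last 0 h array was left out). Between the lines at 72 h, 4 were higher in Y577F cells and 1 was lower, and without 72 h array 1 the number of higher ones was 1. Cd53, a tetraspanin of leukocytes, rose furthest among them (0.83 ± 0.08).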

How the data were processed

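RNA abundance was measured on 10 two-colour spotted oligonucleotide arrays. The authors deposited 1 log2 ratio per spot and array. The submitters' processing notes name limma, and how the background was corrected or ratios normalized is not given in the sources used here. Base 2 is assumed. Of 23040 spots, 1243 controls were left out. Probes sharing a single gene symbol were averaged, which gave 20243 features. Ratios were turned by the dyes in the titles. The FI-Delta time arrays 1 and 2, by their titles a dye swap of the same RNA, were averaged, leaving 9 hybridisations.

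With limma 3.58.1 (R 4.3.3), a linear model of 3 coefficients (4 RNA groups) plus a dye term was fitted over all features, with 5 residual and 6.34 prior degrees of freedom. Tests were two-sided, with Benjamini-Hochberg adjustment over all features and calls at an adjusted p under 0.05. The fit was run on simulated data with independent noise on each hybridisation. Shared extracts were not simulated, so this does not check the p-values against such sharing. The p-values treat arrays as independent although, by the numbers in their titles, they share extracts. Alternatives changed the scaling, dye term, array weights, moderation, probe averaging, the arrays used and each array in turn. Extracts were read from the numbers in the titles, which on 72 h array 2 and 0 h arrays 2 and 3 were taken as given to the opposite dye. As a check, signs were set so that a deviation of a shared extract would read as positive. Residuals of arrays taken to share an extract correlated between -0.46 and -0.08, so this reading was not borne out. Apart from the averaged dye swap, the main fit used no pairing. The replicate block rests on this reading of the titles.

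All Ms4a genes are named, with the 5 genes most like each member called in at least 2 direct comparisons, cluster neighbours, and gene lists. Up to 4 called genes per list, by size, were to be named, and a few more genes were picked with their values seen. The members and lists were chosen with earlier results of these data known. Leave-one-out counts of lists were added after seeing the data. Promoter windows from RefSeq were aligned with Biopython 1.88.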

Additional observations from a re-analysis of the deposited data

Results flagged for a closer look

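For 6 members the change with time differed between the lines by the test of that difference, the change in Y577F cells minus the change in FI-Delta cells (limma, adjusted over all 20243 features). The difference was 1.91 for Ms4a6b (adjusted p = 1.55e-05), 1.85 for Ms4a6c (adjusted p = 1e-05) and 1.49 for Ms4a6d (adjusted p = 1.34e-05). Each of these genes was higher at 72 h on both arrays of Y577F cells and on all 3 arrays of FI-Delta cells, and by more in Y577F cells. For Ms4a6d this holds for the mean of its 2 probes, whose own differences were 1.90 and 1.07. Probe 1 read -0.05 on FI-Delta time array 1. Ms4a4c had 1.18 (adjusted p = 0.000191), with both Y577F time arrays above 0 and FI-Delta time arrays on both sides of it, and Ms4a7 had 0.59 (adjusted p = 0.00644). Ms4a3 had -1.15 (adjusted p = 9.59e-05), and its time arrays had opposite signs in the lines. No group had 4 or more arrays, so single arrays standing apart within a group were not tested.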

How the results depend on the processing

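The members had 23 called values over the 5 comparisons. In 441 recomputations of these under the alternatives, 421 kept the call, 20 lost it and 0 turned sign. The 57 values that were not called gave 1089 recomputations, of which 12 gained a call, and 107 turned sign, none of them among those called. With time in FI-Delta cells, 2 members in place of 4 were called from the direct arrays alone without a dye term, and 2 with the replicate block, in which each RNA extract has its own coefficient. Leaving out 1 array at a time gave 2 to 4 called members there, 5 to 6 with time in Y577F cells, 6 to 7 between the lines at 72 h, 1 to 1 at 0 h and 6 to 7 for the difference between the lines; the 2 came without 0 h array 1. The replicate block also ended the calls of Ms4a3 with time in Y577F cells (adjusted p = 0.0525) and of Ms4a7 at 72 h (adjusted p = 0.0789) and in the difference between the lines (adjusted p = 0.148). Scaling the arrays to one spread ended that of Ms4a3 with time in Y577F cells (adjusted p = 0.0713), and direct arrays alone ended that one too (adjusted p = 0.0507), that of Ms4a7 at 72 h (adjusted p = 0.112), and those of Ms4a4c (adjusted p = 0.0577) and Ms4a7 (adjusted p = 0.0722) in the difference. Ms4a1 was called lower in Y577F cells at 72 h (-0.61) and in the difference (-0.74) only without Y577F time array 2, and Ms4a10 and Ms4a4b only under array weights, for 1 probe or without a single array. The cause of these changes was not tested. The number of arrays limits what could be called, and spot intensities, which limit dim probes, were not analysed here.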
